A study of Mus musculus with 10 samples.

Results

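Serum amyloid and orosomucoid genes, with 3 further genes of the acute phase response, were followed in the visceral fat of mice with and without a pancreatic tumour. The set was taken by gene symbol and holds 8 genes: Saa1, Saa2 and Saa3 (serum amyloid A), Orm1 and Orm2 (orosomucoid, also called alpha-1-acid glycoprotein), Lbp (lipopolysaccharide binding protein), Itih4 (inter-alpha-trypsin inhibitor heavy chain 4) and Steap4 (a metalloreductase). All 8 were found in both deposited tables, which list 16667 genes with normalized counts and 29242 genes with TPM. TPM scales every library to the same total and corrects for gene length.

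The control group was 5 sham-operated mice, and the tumour group was 5 mice with an orthotopic KPC tumour, one placed in the pancreas itself. KPC is the usual name of a mouse model of pancreatic ductal adenocarcinoma. All 10 mice were 10 weeks old, of strain C57BL/6 and wild type, and each gave 1 library. The sources used here give neither the sex, nor the source of the tumour cells, nor the time since surgery. The study asks whether the type 2 immune state of fat holds while fat is lost in cancer. Adipocyte markers summed to 43230 to 51890 TPM across sham mice and 40620 to 49390 TPM across KPC mice, and none of the 14 was at 0.

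The acute phase response is the change in blood proteins that follows infection, injury or a tumour. Interleukin 6 and its relatives act through the receptor chain gp130 and STAT3, and interleukin 1 and tumour necrosis factor act through NF-kappa-B. C/EBP beta and delta act with both. The liver makes most acute phase proteins, but fat makes several of them, and in mice Saa3 is known as the serum amyloid gene of tissues outside the liver, in fat cells and macrophages. Orm1 is a lipocalin that binds drugs and lipids in plasma and is also made by fat cells, Lbp hands bacterial lipopolysaccharide to CD14 and TLR4, and Steap4 is a membrane reductase of iron and copper first described as a gene that tumour necrosis factor induces in fat cells.

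The serum amyloid genes lie together on chromosome 7 of GRCm38, where GENCODE vM21 places the protein-coding genes Saa3 at chr7:46711998-46715700 and Saa1 at chr7:46740497-46742980 on the minus strand and Saa2 at chr7:46751790-46754313 on the plus strand. The orosomucoid genes lie together on the plus strand of chromosome 4, Orm1 at chr4:63344560-63348163 and Orm2 at chr4:63362449-63365878, with Orm3 between them at chr4:63356162-63359511. Lbp (chr2:158306493-158332852), Itih4 (chr14:30886476-30902353) and Steap4 (chr5:7960457-7982213) are single genes on the plus strand. The annotation holds no other gene that overlaps any of these 9 genes.

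The first 60 coding bases of the serum amyloid genes show which copies sequencing reads can tell apart. Letters in capitals differ from Saa1 at the same position.
Saa1: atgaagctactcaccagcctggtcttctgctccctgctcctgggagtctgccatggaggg
Saa2: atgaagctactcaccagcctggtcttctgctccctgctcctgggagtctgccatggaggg
Saa3: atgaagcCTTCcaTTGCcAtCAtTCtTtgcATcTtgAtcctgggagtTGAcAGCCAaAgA
In this stretch Saa2 has 0 differences from Saa1 and Saa3 has 28. Over the whole coding sequence Saa1 and Saa2 were 95.1% identical and Saa1 and Saa3 74.3%. Of the 31-base windows of the Saa1 transcript, 26.8% also occur in the Saa2 transcript and 4.8% in that of Saa3. Reads that Salmon divides between Saa1 and Saa2 therefore leave the single values of these genes uncertain, and their sum is given as well.

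The same stretch of the orosomucoid genes differs at 8 positions from Orm1 in Orm2 and in Orm3.
Orm1: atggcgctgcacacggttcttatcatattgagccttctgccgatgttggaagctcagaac
Orm2: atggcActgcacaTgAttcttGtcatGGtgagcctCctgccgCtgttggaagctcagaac
Orm3: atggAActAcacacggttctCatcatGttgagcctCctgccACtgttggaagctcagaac
Coding identity was 89.9% between Orm1 and Orm2 and 86.0% between Orm1 and Orm3, and 27.5% of the 31-base windows of Orm1 occur in Orm2.

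Among all 14203 genes with a mean of at least 10 normalized counts, limma called 0.0563% different between KPC and sham mice at an adjusted p under 0.05, 0.0493% higher and 0.00704% lower, and 7 members were among the genes tested. None of these 7 passed, and 2 of them, Saa3 and Itih4, had an unadjusted limma p under 0.05, where 13.5% of all tested genes did. Both were higher in KPC mice, and 7.61% of tested genes had such a p on the higher side and 5.91% on the lower. For 1 of the 7, Saa3, the lowest KPC mouse lay above the highest sham mouse, where 2.75% of all tested genes were so split, and 0 members were split the other way, where 1.28% of genes were, or 4.03% in either direction. The members did not move as a block: 4 tested members had a positive and 3 a negative log2 difference. Their median difference was 0.20, where that of all tested genes was -0.02. Library totals were 20941242 to 24449863 normalized counts. One library stood apart by its correlation and its mitochondrial share. KPC mouse 1 had a median correlation of 0.908 with the others on the log2 scale, where the remaining libraries had 0.939 to 0.959, and 15.7% of its TPM lay in mitochondrially encoded genes, where the others had 26.3% to 33.3%.

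**Figure D1:**
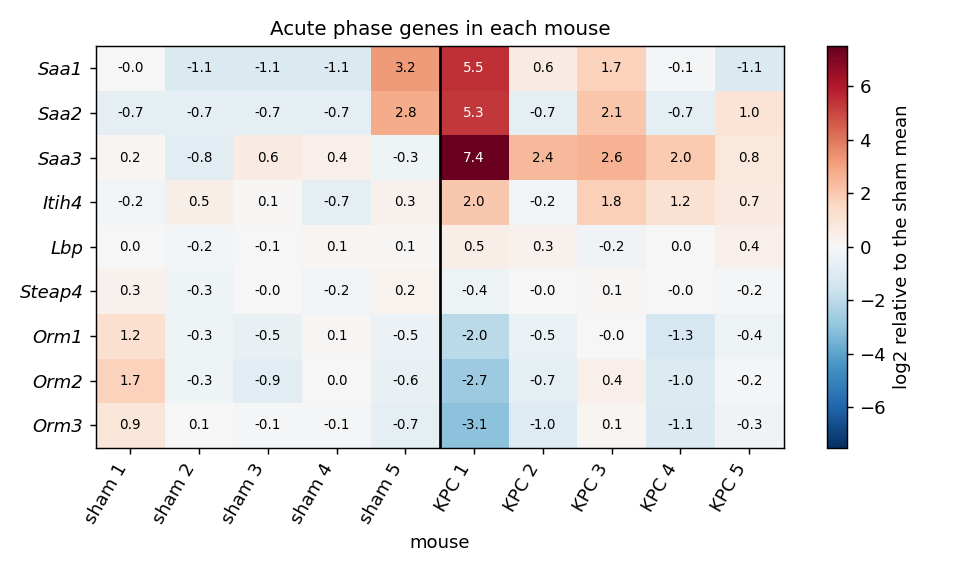
Colour and number give the log2(normalized count + 1) of each acute phase gene (rows, Orm3 included as a near copy) in each mouse (columns) relative to the mean of the 5 sham mice; the black line separates sham from KPC mice. KPC mouse 1 had the highest value of all 10 mice for Saa1, Saa2, Saa3, Itih4 and Lbp and the lowest for Orm1, Orm2, Orm3 and Steap4.

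Saa3 had the widest gap between the groups of the 8 members. The 5 sham mice stood at 8.77, 4.81, 14.4, 11.8 and 7.13 TPM in the order of their numbers, and KPC mice 1 to 5 stood at 1405, 45.0, 50.0, 37.5 and 15.4 TPM. The groups did not overlap, but the lowest KPC mouse was only 1.07 times the highest sham mouse, and KPC mouse 1 was 28.1 times the next KPC mouse. The means were 9.39 ± 3.80 TPM (SD, n = 5) among sham and 311 ± 612 TPM (SD, n = 5) in KPC mice. Without KPC mouse 1 the KPC mean was 37.0 ± 15.2 TPM.

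On the log2(normalized count + 1) scale, which every log2 difference here uses, Saa3 was 3.04 ± 0.99 (SE) higher in KPC mice, or 8.22-fold with a 95% interval of 1.84 to 36.8. The adjusted p by limma was 0.255 and the unadjusted p 0.0101. Leaving out KPC mouse 1 brought it to 1.95 (adjusted p = 0.0696 by limma). The exact two-sided permutation test of this single gene over all assignments of the mice gave an unadjusted p of 0.00794, the smallest that 5 against 5 can give. Every gene whose groups do not overlap gives this p, and 4.03% of all tested genes were so split. It therefore adds nothing to the lack of overlap. Within the mice whose titles share a first number, a number that the labels do not explain, the Saa3 difference was 5.24 for number 1 (2 against 2 mice), 2.08 for number 2 (2 sham, 1 KPC) and 1.74 for number 4 (1 sham, 2 KPC).

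Markers of myeloid cells were high in the same mouse. The 13 macrophage markers summed to 924.5 to 1503 TPM in sham, 1571 to 2313 TPM in KPC mice 2 to 5 and 6191 TPM in KPC mouse 1. All 13 had a positive difference, where 46.9% of all tested genes did. None of the 13 passed adjustment, and none was at 0 in all mice. The 12 neutrophil markers summed to 35.8 to 74.7 TPM in sham, 45.5 to 103 TPM in KPC mice 2 to 5 and 273 TPM in KPC mouse 1. The 8 red cell markers summed to 4763 to 12890 TPM in sham, 8569 to 20320 TPM in KPC mice 2 to 5 and 40770 TPM in KPC mouse 1. Mesothelial markers, from the lining of the abdominal cavity, were at 275 TPM in KPC mouse 1, inside the 132.5 to 318 TPM of sham mice. The part of these cells in the Saa3 difference was not tested. In bulk tissue, more cells of a type and more RNA per cell cannot be told apart.

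Saa1 and Saa2, the serum amyloid genes of the liver response, were close to absent in this fat. Saa1 was listed at 0.156, 0, 0, 0 and 3.08 TPM in sham mice 1 to 5 and at 13.9, 0.332, 0.885, 0.171 and 0 TPM in KPC mice 1 to 5. Saa2 was listed at 0 in sham mice 1 to 4 and at 1.75 TPM in sham mouse 5, and at 9.87, 0, 0.914, 0 and 0.380 TPM in KPC mice 1 to 5. KPC mouse 1 and, with less, sham mouse 5 held most of both transcripts, and the groups overlapped. Sham mouse 5 also had the highest summed skeletal muscle markers, 4429 TPM, where the other mice had 49.8 to 1499 TPM. Its progenitor and fibroblast markers, at 3949 TPM, were the highest as well. The part of this tissue make-up in the Saa1 and Saa2 values was not tested.

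The log2 difference of Saa1 was 1.34 ± 1.31 (SE) with an adjusted p of 0.682 by limma, and 0.30 without KPC mouse 1. Saa2 had a mean under 10 normalized counts and stayed outside the limma fit. Its difference was 1.40 with an exact permutation p of 0.405, and 0.43 when KPC mouse 1 was left out. The sum of Saa1 and Saa2 differed by 1.89 with an exact permutation p of 0.238, and by 0.83 without KPC mouse 1. The sum over all 3 serum amyloid genes differed by 2.92 with an exact permutation p of 0.00794, and by 1.83 without KPC mouse 1, and Saa3 was the larger part of that sum in every mouse. The groups did not overlap in this sum either, and that p follows from the lack of overlap.

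Hepatocyte markers were summed in KPC mouse 1 and sham mouse 5, the mice with the most Saa1 and Saa2. Cyp2e1 was expressed in this fat at 929 to 2400 TPM. The other 13 hepatocyte markers summed to 12.1 TPM in KPC mouse 1 and 21.2 TPM in sham mouse 5. All sham mice lay between 16.2 and 28.2 TPM, a range that sham mouse 5 itself helps to set. Alb, which was lower in all KPC mice than in all sham mice, was the largest part of this sum. It stood at 5.12 TPM in KPC mouse 1 and 14.3 TPM in sham mouse 5. The part of liver RNA in the Saa1 and Saa2 values was not tested. Ttr and Apob, defining genes of hepatocytes, were at 0 in KPC mouse 1, and Cyp3a11 was at 0 in all mice. Apob was also at 0 in sham mouse 2 and KPC mouse 4. Single members of the list lay the other way: Ahsg was highest in KPC mouse 1 at 4.63 TPM, and sham mouse 5 was the only mouse with Ttr, at 0.250 TPM, and held the highest Ambp, 0.348 TPM, and Fabp1, 0.659 TPM.

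**Figure D2:**
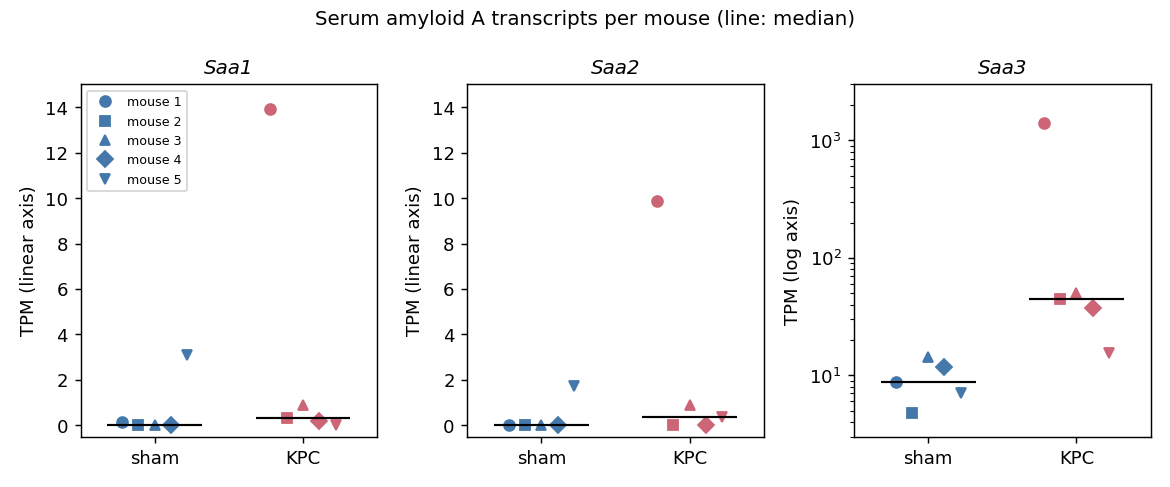
TPM of Saa1 and Saa2 (linear axes) and Saa3 (log axis) in each of 5 sham and 5 KPC mice, with symbols for mouse number and a line at the group median. Saa3 lay at 15.4 to 1405 TPM in KPC mice and at 4.81 to 14.4 TPM in sham mice, while Saa1 and Saa2 were near 0 outside KPC mouse 1 and sham mouse 5.

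Orosomucoid genes lay the other way. Orm1 was among the most abundant transcripts of the tissue, above 99.25% of all listed genes by its sham mean. It stood at 933, 365, 336, 512 and 349 TPM in sham mice 1 to 5 and at 106, 311, 431, 203 and 357 TPM in KPC mice 1 to 5. The groups overlapped. Sham mouse 1 was the highest and KPC mouse 1 the lowest of all 10 mice.

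Means of Orm1 were 499 ± 253 TPM (SD, n = 5) among sham and 282 ± 128 TPM (SD, n = 5) in KPC mice, a log2 difference of -0.83 ± 0.41 (SE) with a 95% interval of -1.73 to 0.07. The adjusted p by limma was 0.402, and the exact permutation p was 0.135. Without sham mouse 1 the difference was -0.53, and it was -0.53 without KPC mouse 1 as well. With both left out, a step chosen after seeing the data, it was -0.23. The Orm1 difference was -1.69 among mice with the first title number 1, 0.21 for number 2 and -0.37 for number 4, so its sign was not the same within these numbers.

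Orm2, the near copy of Orm1, was listed at 16.3, 4.33, 3.13, 5.73 and 3.79 TPM in sham mice 1 to 5 and at 0.709, 3.16, 6.75, 2.77 and 4.89 TPM in KPC mice 1 to 5. Its difference was -0.84 ± 0.61 (SE) with an adjusted p of 0.566 by limma. It was -0.40 without sham mouse 1 and -0.37 without KPC mouse 1. Orm3, the remaining copy, stood at 15.5 ± 5.62 TPM among sham and 8.67 ± 5.28 TPM in KPC mice, with a difference of -1.06 ± 0.53 (SE) and an adjusted p of 0.406 by limma. It was -0.56 without KPC mouse 1. The order of the mice was alike for the 3 genes: sham mouse 1 was the highest and KPC mouse 1 the lowest for each.

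Orm1 made up 95% to 97.9% of the TPM of the 3 orosomucoid genes in every mouse. Their sum differed by -0.83 with an exact permutation p of 0.135, a value that does not depend on how reads are divided among the copies. Adipocyte markers were also lowest in KPC mouse 1, at a summed 40620 TPM, and highest in sham mouse 1, at 51890 TPM. Fabp4 was the largest part of this sum, and at 17730 TPM in KPC mouse 1 it lay inside the sham range of 15600 to 24180 TPM. Of the 14 adipocyte markers 5 had a positive difference, where 46.9% of all tested genes did, and none passed adjustment. Plin1, Lpl, Pparg and Acvr1c, 4 of the 14, were lower at an unadjusted limma p under 0.05, where 5.91% of all tested genes were, and 0 were higher. The part of the adipocyte markers in the Orm1 values was not tested.

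**Figure D3:**
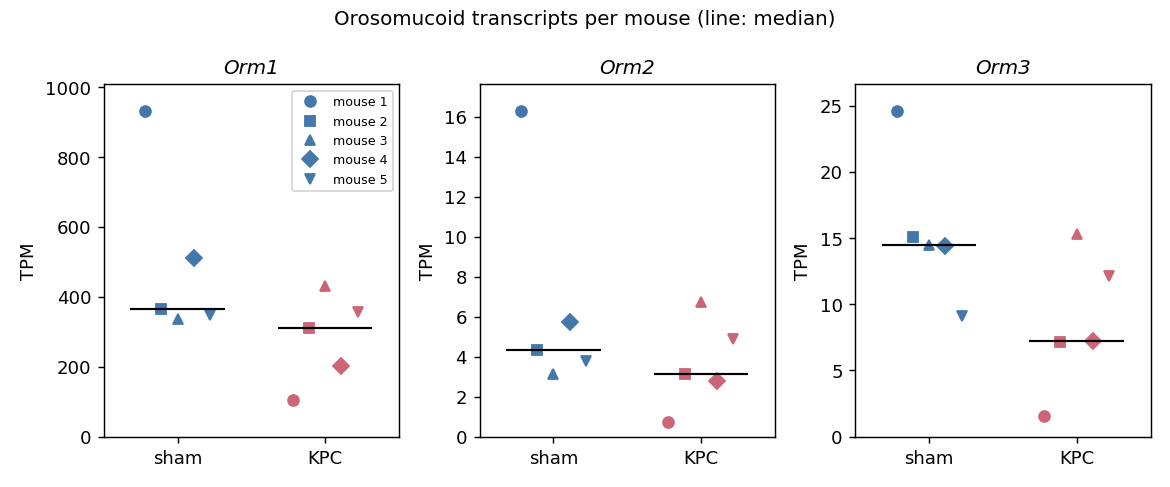
TPM of Orm1, Orm2 and their near copy Orm3 in each of 5 sham and 5 KPC mice, with symbols for mouse number and a line at the group median. In each panel sham mouse 1 was the highest and KPC mouse 1 the lowest point, and the groups overlapped.

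Itih4, a plasma protein made mainly by the liver, was low in fat and stood higher in most KPC mice. It stood at 3.22, 5.57, 4.67, 2.67 and 5.37 TPM in sham mice 1 to 5 and at 15.4, 3.37, 13.4, 9.85 and 6.91 TPM in KPC mice 1 to 5. Only KPC mouse 2 lay inside the sham range. The means were 4.30 ± 1.30 TPM (SD, n = 5) and 9.79 ± 4.85 TPM (SD, n = 5).

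The Itih4 difference was 1.09 ± 0.38 (SE), or 2.13-fold with a 95% interval of 1.19 to 3.81. The adjusted p by limma was 0.283, the unadjusted p 0.0154 and the exact permutation p of the single gene 0.0556. It was 0.87 without KPC mouse 1 and 1.42 without KPC mouse 2. Within first title numbers 1, 2 and 4 it was 0.76, 2.07 and 0.62. None of the other family members tested passed. Itih5, the member that fat expresses most, stood at 68.9 ± 25.5 TPM among sham and 55.0 ± 23.8 TPM in KPC mice (adjusted p = 0.663 by limma), Itih2 at 0.235 ± 0.143 and 0.195 ± 0.105 TPM (adjusted p = 0.896 by limma), and Itih1 was under 0.5 TPM in every mouse. Itih3, too low to be tested, was at 0.0778 TPM in sham mouse 4 and at 0 in the other 4 sham mice. It was at 0.128, 0.432, 0.0973, 0.375 and 0 TPM in KPC mice 1 to 5. Thus 4 KPC mice lay above all sham mice, but they were not the same 4 as for Itih4. KPC mouse 2 had the highest Itih3 with Itih4 inside the sham range, and KPC mouse 5 had no Itih3.

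Lbp was abundant and nearly level. It stood at 69.7, 64.8, 78.0, 86.1 and 85.0 TPM in sham mice 1 to 5 and at 101.4, 89.8, 60.3, 81.7 and 101.8 TPM in KPC mice 1 to 5. KPC mice held both the highest and the lowest value. The difference was 0.20 ± 0.14 (SE), or 1.15-fold with a 95% interval of 0.92 to 1.43, and the adjusted p by limma was 0.559. It was 0.12 without KPC mouse 1.

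Steap4 overlapped Orm1 in level and showed the smallest difference of the 7 tested members. It stood at 309.8, 219, 284, 251 and 339 TPM in sham mice 1 to 5 and at 195.5, 256, 272, 292 and 248 TPM in KPC mice 1 to 5. The difference was -0.11 ± 0.15 (SE), or 0.92-fold with a 95% interval of 0.74 to 1.16, and the adjusted p by limma was 0.769. It was -0.03 without sham mouse 1 and -0.04 without KPC mouse 1. The interval leaves out a doubling or a halving, but a p that misses the threshold does not show that the groups are equal. Steap3 at 41.6 ± 9.63 and 38.6 ± 7.76 TPM, Steap2 at 2.45 ± 0.863 and 2.59 ± 1.05 TPM and Steap1 at 0.946 ± 0.612 and 2.31 ± 2.55 TPM did not pass either, and the Steap1 value of KPC mouse 1 was 6.82 TPM.

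**Figure D4:**
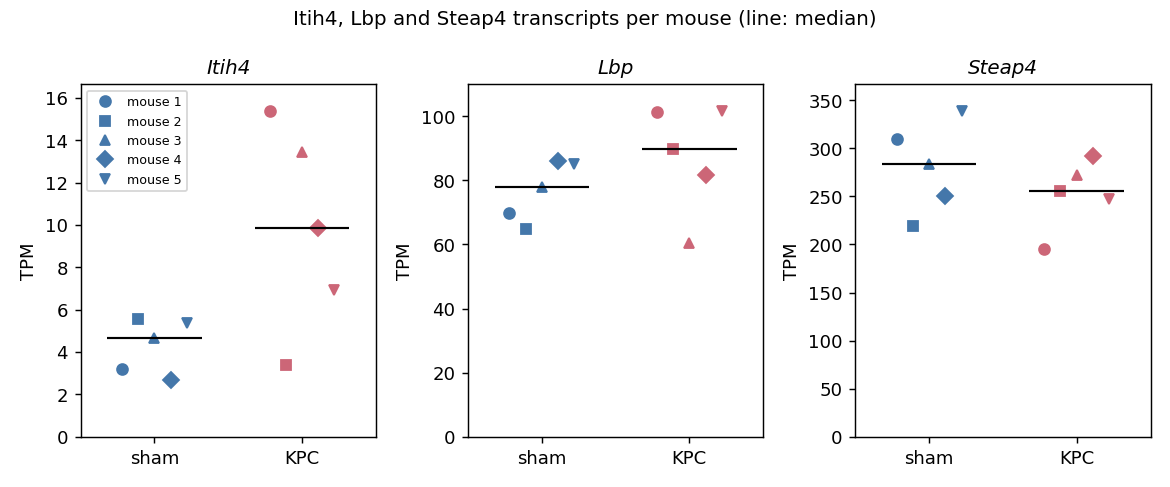
TPM of Itih4, Lbp and Steap4 in each of 5 sham and 5 KPC mice, with symbols for mouse number and a line at the group median; axes start at 0. Of the KPC mice 4 lay above all sham mice for Itih4, at 6.91 to 15.4 TPM, while Lbp and Steap4 overlapped widely.

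By mean TPM the order in sham mice was Orm1, Steap4, Lbp, Saa3, Orm2, Itih4, Saa1 and Saa2. Steap4 lay above Lbp and Lbp above Saa3 in every pair of sham mice, and the other neighbours overlapped. In KPC mice the order was Saa3, Orm1, Steap4, Lbp, Itih4, Orm2, Saa1 and Saa2, and Saa3 led only through KPC mouse 1, since its mean without that mouse was 37.0 TPM, under that of Lbp. Steap4 lay above Lbp and Lbp above Itih4 in every pair of KPC mice, and the other neighbours overlapped.

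**Figure D5:**
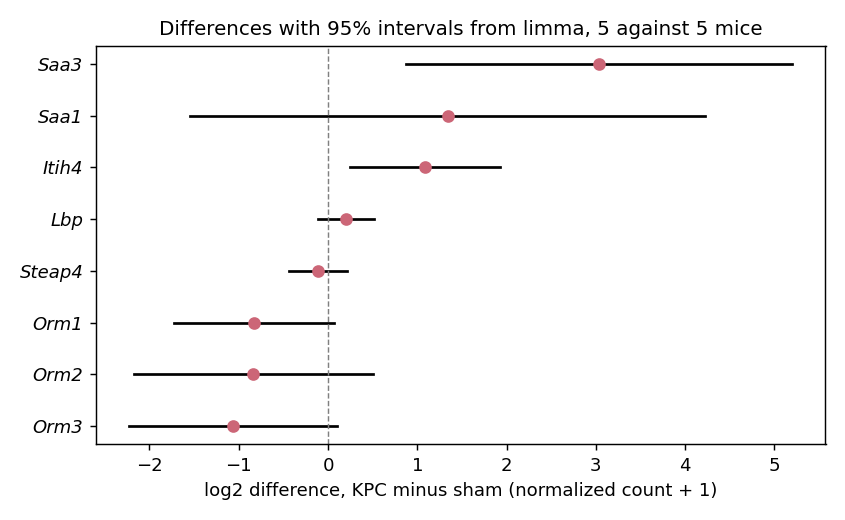
Log2 difference between KPC and sham mice (point) with its 95% interval from limma (line) for the 7 tested acute phase genes and the near copy Orm3; the dashed line marks no difference. The intervals of Saa3 and Itih4 lay above 0 before adjustment, those of Lbp and Steap4 were narrow around 0, and those of the orosomucoid genes lay mostly below 0.

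The sequence before the start site is shown for Saa3, whose groups did not overlap, for Itih4, and for Steap4, which showed the smallest difference. The 250 bases upstream of the RefSeq start on GRCm38.p6 are given 5' to 3', and capitals mark matches to a C/EBP pattern (TTNNGNAA), a STAT pattern (TTCNNNGAA) or an NF-kappa-B pattern (GGG, any 2 bases, then TTTCC) on either strand. RefSeq promoters were matched by symbol, and those of Orm1 and Lbp were not analysed here.
Saa3, chr7:46715677-46715926, minus strand: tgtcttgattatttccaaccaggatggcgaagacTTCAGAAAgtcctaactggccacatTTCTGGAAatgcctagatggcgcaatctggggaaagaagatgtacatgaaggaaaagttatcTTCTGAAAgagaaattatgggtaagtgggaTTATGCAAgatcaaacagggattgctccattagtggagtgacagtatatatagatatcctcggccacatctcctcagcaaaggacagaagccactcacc
Itih4, chr14:30886226-30886475, plus strand: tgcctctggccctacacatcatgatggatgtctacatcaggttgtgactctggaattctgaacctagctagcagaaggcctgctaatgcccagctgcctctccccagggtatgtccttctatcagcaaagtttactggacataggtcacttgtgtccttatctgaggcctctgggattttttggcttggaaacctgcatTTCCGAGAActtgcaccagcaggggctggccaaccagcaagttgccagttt
Steap4, chr5:7960222-7960471, plus strand: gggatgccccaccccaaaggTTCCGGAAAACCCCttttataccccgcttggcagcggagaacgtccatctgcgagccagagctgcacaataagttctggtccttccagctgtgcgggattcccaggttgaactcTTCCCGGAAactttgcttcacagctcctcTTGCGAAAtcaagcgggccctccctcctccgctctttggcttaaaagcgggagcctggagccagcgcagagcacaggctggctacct
Saa3 had 4 C/EBP matches and no match to the other patterns in this window, and Itih4 had 1 STAT match, 51 to 43 bases before the start. Steap4 had 2 C/EBP matches, 1 STAT match 116 to 108 bases before the start and 1 NF-kappa-B match that overlaps its distal C/EBP match. Among 32851 RefSeq promoter windows of this length, 36.8% held the C/EBP pattern, 7.02% the STAT pattern and 1.41% the NF-kappa-B pattern. Of the promoters read but not printed, Saa1 and Orm2 held 2 C/EBP matches each and Saa2 and Orm3 held 1 each. A match describes the letters only.

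Other acute phase genes that inflammation raises mostly lay higher in KPC mice. Of 34 listed genes 21 were tested, 18 had a positive difference, where 46.9% of all tested genes did, and 6 had KPC mice all above sham mice, where 2.75% did. The list's median difference was 1.15, where that of all tested genes was -0.02. At an unadjusted limma p under 0.05, 14 were higher, where 7.61% of all tested genes were, and 2 were lower, where 5.91% were. Mt2, the zinc-binding metallothionein 2, rose and was the only one to pass (2.82 ± 0.40, adjusted p = 0.0299 by limma), where 0.0493% of tested genes passed higher. Its near copy Mt1 stood at 179.9 ± 25.5 against 658 ± 332 TPM (adjusted p = 0.0605 by limma).

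Hp, haptoglobin, which binds free haemoglobin, stood at 915 ± 339 TPM among sham and 3406 ± 2302 TPM in KPC mice (adjusted p = 0.0994 by limma over all 10 mice). KPC mice 2 to 5 alone had a mean of 2409 ± 657 TPM. Lcn2, a lipocalin that withholds iron from bacteria, stood at 2.41 ± 0.739 and 16.2 ± 14.1 TPM (adjusted p = 0.102 by limma). The protease inhibitor genes Serpina3n and Serpina3g stood at 198 ± 39.5 against 409 ± 219 TPM and 2.67 ± 0.983 against 10.2 ± 4.56 TPM (adjusted p = 0.252 and 0.0795 by limma). Cp, the copper protein ceruloplasmin, stood at 56.3 ± 5.47 and 66.8 ± 11.8 TPM (adjusted p = 0.420 by limma), and Saa4 was under 0.2 TPM in every mouse. For Hp, Lcn2 and Serpina3g the groups did not overlap, as for Saa3.

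Plasma protein genes that inflammation lowers gave no such shift in their median, though 2 of them lay lower before adjustment. Of 14 listed genes 7 were tested, 3 were positive, 0 passed, and the median difference was -0.04. Alb and Igf1 were lower at an unadjusted limma p under 0.05, where 5.91% of all tested genes were, and 0 were higher. Alb, albumin, was the one with KPC mice all below sham mice, where 1.28% of all tested genes were. It stood at 5.12 to 11.9 against 12.5 to 19.9 TPM (-0.93 ± 0.22, adjusted p = 0.127 by limma). Rbp4, the retinol carrier that fat also secretes, stood at 964 ± 272 and 676 ± 248 TPM, Igf1 at 173 ± 14.1 and 144 ± 12.4 TPM and Ahsg at 0.890 ± 0.546 and 1.64 ± 1.70 TPM, and Ttr was at 0 in 9 of the 10 mice.

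Among cytokines and receptors that induce the response, 19 of 22 listed genes were tested, and the median difference was 0.23. Of these, 13 were positive, where 46.9% of all tested genes were, and 3 had KPC mice all above sham mice, where 2.75% did. Osmr, the oncostatin M receptor chain, rose (0.74 ± 0.10, adjusted p = 0.0299 by limma). It was the only one to pass, where 0.0493% of all tested genes passed higher. The cytokine genes themselves were low. Il6 was at 17.8 TPM in KPC mouse 1 and at 0 to 1.10 TPM in the other mice, Il1b at 26.3 TPM in KPC mouse 1 and 0.356 to 3.00 TPM elsewhere, Osm at 2.46 TPM in KPC mouse 1 and 0.0815 to 0.656 TPM elsewhere, and Tnf at 0.0446 to 0.339 TPM in all mice. KPC mouse 1, with the highest Saa1, Saa2 and Saa3 values, thus also held the highest values of Il6, Il1b and Osm. Its Tnf value was the highest as well, but sham mouse 2 came near at 0.244 TPM. Tnf lay under 10 normalized counts in every mouse and was not tested. The receptor gene Il1r1 stood at 9.68 ± 1.04 and 17.3 ± 5.21 TPM (adjusted p = 0.119 by limma), Il6st, the gp130 chain, at 80.7 ± 16.6 and 91.1 ± 14.6 TPM, Il6ra at 4.82 ± 0.868 and 5.98 ± 3.10 TPM, Tnfrsf1a at 107 ± 3.68 and 132 ± 13.0 TPM and Tnfrsf1b at 14.4 ± 2.59 and 20.4 ± 3.83 TPM.

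Of 24 listed regulators 21 were tested, 17 were positive (46.9% of all tested genes), 4 had KPC mice all above sham mice (2.75% of all tested genes), and the median difference was 0.21. Cebpd, the transcription factor C/EBP delta, rose (1.96 ± 0.22, adjusted p = 0.0109 by limma) and was the only one to pass, where 0.0493% of all tested genes passed higher. It stood at 19.4 TPM or more in every KPC mouse and at 10.3 TPM or less in every sham mouse, and KPC mouse 1 was the highest at 43.0 TPM. Stat3 stood at 41.4 ± 4.25 and 56.8 ± 7.40 TPM (adjusted p = 0.0795 by limma), and Socs3, the feedback inhibitor that STAT3 induces, at 8.48 ± 3.52 and 33.5 ± 34.6 TPM (adjusted p = 0.273 by limma over all 10 mice). The Socs3 mean of KPC mice 2 to 5 alone was 18.4 ± 8.25 TPM. Nfkbia, the NF-kappa-B inhibitor, and Maff, a small Maf factor, stood at 56.3 ± 9.18 against 95.9 ± 25.2 TPM and 3.69 ± 0.569 against 8.51 ± 2.42 TPM (adjusted p = 0.0795 and 0.0634 by limma), and Cebpb at 42.1 ± 8.03 against 62.8 ± 24.6 TPM.

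Receptors and partners of the member proteins lay mostly higher without a call. Of 19 listed genes 17 were tested, and 15 were positive, where 46.9% of all tested genes were. By limma 0 passed, 9 had an unadjusted p under 0.05, where 13.5% of all tested genes did, and the median difference was 0.47. Fpr2, a receptor for serum amyloid A on myeloid cells, stood at 0 to 0.825 TPM among sham and 1.06 to 6.57 TPM in KPC mice (adjusted p = 0.255 by limma). Cd14, which takes lipopolysaccharide from Lbp, stood at 13.2 ± 3.70 and 27.1 ± 12.0 TPM (adjusted p = 0.197 by limma). Ly86, the MD-1 partner of CD180, stood at 16.6 ± 4.31 and 47.7 ± 37.9 TPM, P2rx7, an ATP-gated channel, at 3.21 ± 0.582 and 4.22 ± 0.852 TPM, Tlr4 at 11.5 ± 2.04 and 13.0 ± 1.90 TPM and its partner Ly96 at 13.8 ± 2.46 and 18.5 ± 5.51 TPM. Markers of macrophages lay higher beside this group, with 13 of 13 positive, 12 at an unadjusted p under 0.05, none passing by limma and a median difference of 0.92, and their part in these values was not tested. In the members' families, 10 of 17 listed genes were tested, and 5 were positive, against the same 46.9%. By limma 0 passed, 3 had an unadjusted p under 0.05, against the same 13.5%, and the median was 0.01. The lipocalin gene Apod stood at 10.4 ± 2.74 and 28.1 ± 8.58 TPM (adjusted p = 0.0605 by limma) and Pltp, a phospholipid carrier related to Lbp, at 127 ± 34.95 and 203 ± 64.0 TPM (adjusted p = 0.243 by limma).

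Likeness of pattern was measured as the root mean square difference over the 10 mice between 2 genes' log2 values, each centred on its own mean, among 11780 genes with a mean of at least 50 normalized counts. The genes nearest to Saa3 were Ptx3, a long pentraxin, at 0.903, Clec4n, the C-type lectin dectin 2, at 0.960 and Ccl8, a monocyte chemokine, at 0.995, where the spread of Saa3 itself was 2.24. Those nearest to Saa1 were Timp1 at 1.12, Socs3 at 1.23 and Cfi at 1.23, with an own spread of 2.09. Orm1 was followed more closely, by Lrrc27 at 0.245, the sterol sensor partner Insig1 at 0.251 and Aldh1a7, an aldehyde dehydrogenase, at 0.259, with an own spread of 0.795. Orm2 had Serpina3b at 0.251, Aldh1a7 at 0.269 and Orm1 at 0.348. Itih4 had Sfrp1, a secreted Wnt inhibitor, at 0.396 and the paired genes Tmem176b and Tmem176a at 0.399 and 0.413, with an own spread of 0.832. Lbp, with an own spread of 0.238, had Zdhhc14 at 0.0929, Actr3b at 0.0929 and Rtl8a at 0.10, and Steap4, with one of 0.217, had Rras at 0.0817, Galns at 0.0923 and Eif5a2 at 0.101. These are descriptions over libraries that share KPC mouse 1 as the most distant one.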

How the data were processed

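RNA from visceral fat of 10 mice was sequenced, 1 library a mouse. The authors deposited normalized counts, treated as a non-negative signal, and TPM. The submitters' processing notes name Salmon, DESeq, DESeq2 and mm10 among what the authors used, and the sources used here give no version, annotation or strandedness. At most 47.3% of values up to 30 lay within 0.05 of a whole multiple of a step, which does not recover reads, and count models were left out. The labels number the samples within each group, and p-values measure the spread between these samples.

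Genes with a mean of at least 10 normalized counts entered limma 3.58.1 (R 4.3.3, trended variance) on log2(normalized count + 1), with Benjamini-Hochberg adjustment over 14203 genes and a threshold of 0.05. Saa2 and sums of near copies were tested by exact two-sided permutation. The same test was also run on single members that limma tested, such as Saa3, Orm1 and Itih4, as an alternative. On simulated data for this comparison with 14203 genes, 77.4% of genes changed by 1 and 96% of genes changed by 2 (log2) with a mean of at least 50 were called, and 6.07% of calls were wrong. The simulated noise was normal and independent, and no simulated mouse stood apart as KPC mouse 1 did. These rates therefore do not carry over to members with a large SE, such as Saa3 at 0.99 and Itih4 at 0.38. The median SE of a log2 difference was 0.17. Alternatives varied the pseudocount, filter, scaling, limma settings, blocks and mice. The members, gene lists, tests and motifs were chosen with earlier results of these data known. Genes named are the members, a fixed set of regulators and family genes, up to 4 genes with the smallest p per list, and 3 nearest genes per tested member. Sequences and coordinates come from GENCODE vM21 on GRCm38 and from RefSeq on GRCm38.p6, aligned with Biopython 1.88.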

Additional observations from a re-analysis of the deposited data

Results flagged for a closer look

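A single mouse far from the other 4 of its group was found in 26 of 114 groups of values. The rule picks about 1 in 20 groups by chance where values are normally distributed, but groups with 4 mice at 0 are picked by construction and sums repeat their genes, so the count cannot be set against that rate. KPC mouse 1 was the far one for Saa1 (13.9 TPM), Saa2 (9.87), Saa3 (1405), the sum of Saa1 and Saa2 (23.8) and that of all 3 serum amyloid genes (1429). It was also the far one for Hp (7397 TPM), Saa4 (0.122), Steap1 (6.82), Il6 (17.8), Il1b (26.3), Osm (2.46), Socs3 (94.1), Cebpb (105.5), Fpr2 (6.57), Ahsg (4.63) and Ly86 (114.7). Sham mouse 5 stood apart for Saa1 (3.08 TPM), Saa2 (1.75), their sum (4.82), Cebpd (5.44, the lowest) and Ttr (0.250), and sham mouse 1 for Orm2 (16.3), the sum of the 3 orosomucoid genes (974) and Il1b (2.48). Sham mouse 4 stood apart for Itih3 (0.0778 TPM) and KPC mouse 4 for Igf1 (164.7). No cause of these values was tested.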

How the results depend on the processing

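None of the 7 tested members passed over all genes under any limma alternative, and the lowest adjusted p was 0.0696 for Saa3. Leaving out 1 mouse at a time gave 1.95 to 3.60 for Saa3, 0.30 to 2.14 for Saa1, 0.87 to 1.42 for Itih4, 0.12 to 0.31 for Lbp, -1.03 to -0.53 for Orm1, -1.15 to -0.37 for Orm2, -1.36 to -0.56 for Orm3 and -0.19 to -0.03 for Steap4. The exact permutation test of Saa3 alone (3.04) passed without adjustment, as it does for every gene whose groups do not overlap. Steap4 changed sign with array weights (0.038) and without both number 1 mice (0.041), and Orm2 without both number 1 mice (0.064), a setting chosen after seeing the data; the cause was not tested.

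The number of genes called higher, 7, was 2 on TPM with a pseudocount of 1, 4 on TPM with a pseudocount of 0.1 or without mitochondrial genes, 2 without a variance trend, 172 with array weights and 43 without both number 1 mice, and 1 to 66 when leaving out 1 mouse (66 without KPC mouse 1, 13 without KPC mouse 2, and 1 to 4 without KPC mouse 4 or 5 or any 1 sham mouse). Among the 7 called higher over all 10 mice were Mt2, Osmr and Cebpd. Where only 1 or 2 genes were called higher, Mt2, Osmr and Cebpd cannot all have passed. The number called lower, 1, was 0 on TPM with a pseudocount of 1 and without mitochondrial genes, 28 with array weights, 6 without both number 1 mice and 1 to 4 when leaving out 1 mouse.

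With the description's number as a block 3 genes were called higher, and with the first title number as a block also 3. Under the description's number as replicate block the Saa3 difference stayed at 3.04 (adjusted p = 0.207 by limma), and the exact paired p of the serum amyloid sum was 0.0625 (2.92), the smallest that 5 pairs allow. Deviations of mice with the same description number correlated at 0.00505 to 0.191, and those of mice with unlike numbers at -0.239 to 0.159. With 5 mice a group, such correlations cannot show whether the number marks a pairing, and the labels do not say. Saa1 and Saa2 lie too near 0 for their differences to be read.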

Other observations

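Within the serum amyloid cluster, the highest values of the liver-type genes Saa1 and Saa2 were in KPC mouse 1, but sham mouse 5, which came next for both, had a Saa3 value of 7.13 TPM, below the sham mean of 9.39 TPM. Across the members, KPC mouse 3 had the second highest Saa3 (50.0 TPM) and Itih4 (13.4 TPM) values and, unlike KPC mouse 1, Orm1 at 431 TPM, above 3 of the 5 sham mice, and the lowest Lbp of all mice, 60.3 TPM. KPC mouse 2 had a Saa3 value of 45.0 TPM with Itih4 at 3.37 TPM, inside the sham range.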
